A study of Mus musculus with 16 samples.

Results

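The longest and the shortest stay in a tumour were compared in CD11b+ myeloid cells, 4 samples labelled Kaede-red 72h against 4 labelled Kaede-green 24h, 8 of the 16 samples of the series. Samples were placed by their labels alone, and no measured value took part in the choice. Kaede is a coral protein that fluoresces green and is switched to red by violet light. Tumours were lit through the skin, so cells inside the tumour turned red and cells that entered later stayed green. Kaede-red 72h cells had therefore been in the tumour for more than 72 hours and Kaede-green 24h cells for less than 24 hours. The other 8 samples were 4 of Kaede-green 72h (cells that entered at any time in the 72 hours after illumination) and 4 of Kaede-red 24h (cells with more than 24 hours in the tumour). They entered no contrast and were used to see where a gene lay between the extremes. They also took part in the gene filter, the scaling and the estimate of spread of the test.

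All groups were taken from C57BL/6 mice that carry the Kaede transgene and a subcutaneous MC38-Ova tumour, a mouse colon adenocarcinoma line that makes ovalbumin. None was given a treatment (the label reads Control), and all carry the same batch label. The cells were sorted as live, CD45+, TER119-, Kaede+, CD11b+ and NK1.1-. This gate admits monocytes and macrophages together with neutrophils and CD11b+ dendritic cells, so a lower level may come from fewer cells of a type or from less RNA per cell, and bulk RNA cannot tell these apart. The extremes came from different mice, because 1 set of tumours was taken at 24 hours and the other at 72 hours. Dwell time, tumour age at harvest and Kaede colour cannot be told apart in this comparison.

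Circulating monocytes carry Ly6C, S100 proteins and inflammatory transcripts when they leave the blood, and they can become macrophages in tissue. Macrophages are known for the F4/80 antigen, the CSF1 receptor, complement C1q, a large lysosomal compartment and the uptake of dead cells. Some also load peptides on MHC class II molecules and present them to CD4+ T cells.

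The sorted label was met by the counts. Itgam, which encodes CD11b, gave 69.8 to 84.2 CPM in Kaede-green 24h and 141 to 166 CPM in Kaede-red 72h. CPM here is counts per 1000000 of a library size that is scaled by the bulk of genes (TMM).

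Totals ran from 4590085 to 10823666 counts in Kaede-green 24h and from 4121410 to 15423085 in Kaede-red 72h. Most of these counts fell on Rn45s, the 45S precursor of ribosomal RNA. Its share was 91.0%, 86.5%, 91.6% and 93.4% in replicates 1 to 4 of Kaede-green 24h, and 70.3%, 66.2%, 73.8% and 55.8% in those of Kaede-red 72h. The groups did not overlap, and the means differed by 24.1 percentage points (two-sided exact permutation test, n = 4 and 4, p = 0.0286, the smallest p this design allows). Counts outside Rn45s ran from 468092 to 912689 in Kaede-green 24h and from 1080792 to 5472477 in Kaede-red 72h (exact permutation p = 0.0286), so the fresh cells were measured with less depth. Lars2, Mir6236 and Gm20594 together took 41.3% to 52.2% of the counts outside Rn45s in Kaede-green 24h and 3.06% to 28.3% in Kaede-red 72h. They thus left a smaller part of that depth for other genes in Kaede-green 24h.

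**Figure D1:**
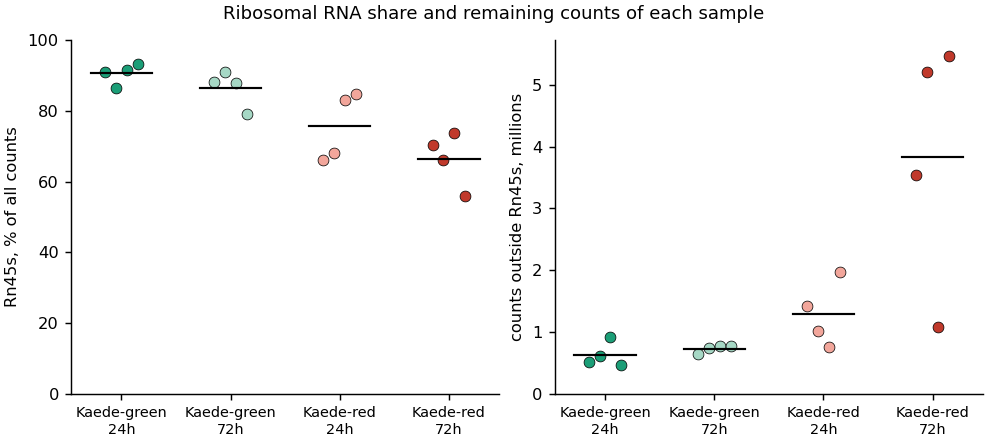
Rn45s share of all counts in percent (left) and counts outside Rn45s (right) for each of the 16 samples, 4 per group, with the group mean as a line. Kaede-green 24h holds the highest shares, 86.5% to 93.4%, and Kaede-red 72h the lowest, 55.8% to 73.8%.

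Long dwell went with more RNA for C1q, macrophage receptors, lysosomal enzymes and dead-cell uptake, and with less for monocyte genes, inflammatory cytokines, ribosomal proteins and small RNAs of the nucleus. Of 9642 genes tested, 2045 were called at an adjusted p under 0.05 in edgeR's quasi-likelihood model (Benjamini-Hochberg), which is 21.2% of the genes tested. Of these, 1044 rose (10.8%) and 1001 fell (10.4%) in Kaede-red 72h. The 4 samples of one extreme did not overlap the 4 of the other for 2114 genes, or 21.9%. The median called gene that rose did so by 1.15 on the log2 scale, and the median that fell changed by -1.29, against a median of 0.10 over all genes tested.

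The groups also differed in Rn45s share without overlap, so that share and dwell time cannot be told apart by group alone. With the share as a covariate 86 genes were called, 26 higher and 60 lower, all 86 in the direction of the main test. They include C1qa, C1qb, C1qc, Cd72, Adgre1, Cd93, Pltp and Pf4 among the rises, and Plac8, S100a4, Wfdc17, Slfn4, Nr4a1, Ptgs2, Tyrobp, Gpx4, Mx2, Ifi27l2a, Uqcrh and Rps14 among the falls. By list, the covariate left 3 of the 10 rises in complement, 2 of 9 in macrophage receptors and 1 of 16 in lysosome. It left 1 of 7 rises in lipid genes and 1 of 5 in chemokines. No rise was left in dead-cell uptake (10), MHC class II (6), MHC class I (5) or transcription factors (10). The same held for matrix genes (8), regulatory cytokines (5) and NF-kB genes (5). Of the falls, it left 3 of 9 in monocyte genes, 1 of 8 in cytokines and 1 of 10 in immediate early genes. Antioxidant genes kept 1 of 9 falls, and chemokines (6) and fibroblast markers (5) kept none. Scaling by library size alone, with Rn45s left in the total, moved the median gene up by 2.81, and all changes below are relative to the bulk of genes.

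**Figure D2:**
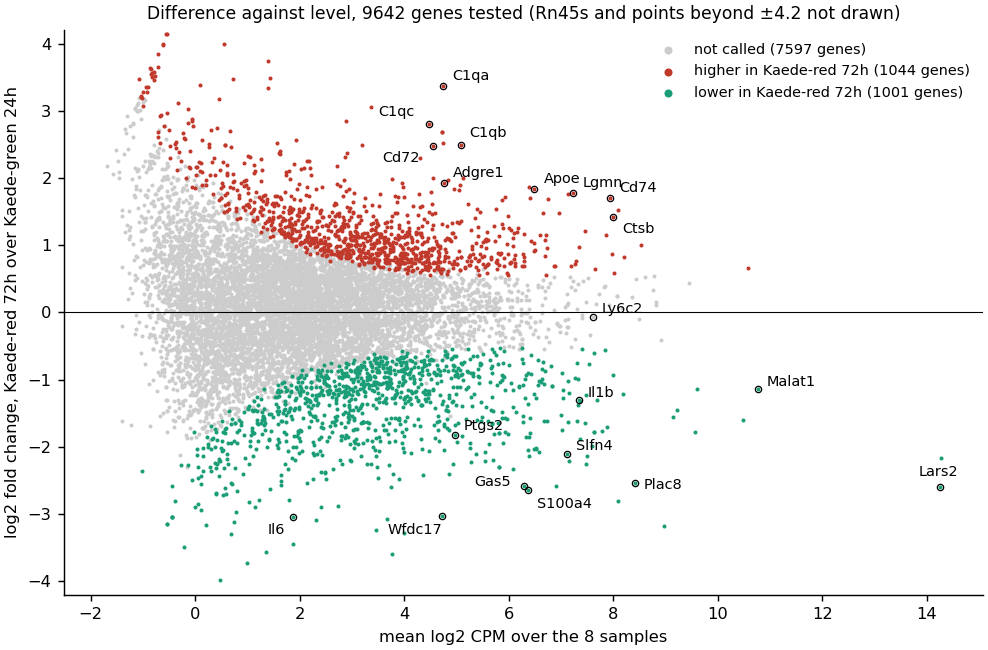
Log2 fold change of Kaede-red 72h over Kaede-green 24h against the mean log2 CPM of the 8 samples, 1 point per gene tested, with called rises in red (1044), called falls in green (1001) and the rest in grey. C1qa stands highest among genes of middle level and Wfdc17, S100a4 and Plac8 lie far below the line, while Ly6c2 lies on it. Rn45s and genes past the ends of the axis are left out.

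Complement genes stood among the largest rises. C1qa, C1qb and C1qc encode the chains of C1q, which binds antibody and dying cells, and lie side by side on the minus strand of chromosome 4 (GRCm38, C1qa at chr4:136895917-136898803). C1qa had 11.2, 7.37, 6.88 and 8.18 CPM in the 4 Kaede-green 24h samples and 94.3, 90.2, 74.4 and 81.1 CPM in the 4 Kaede-red 72h samples. The lowest long-dwell sample stood far above the highest short-dwell sample, a 10.4-fold rise (log2 fold change 3.37, SE 0.24, adjusted p = 4.63e-11). C1qc had 8.36, 7.78, 8.92 and 8.18 CPM against 66.0, 59.2, 42.5 and 66.0 CPM, a 7.02-fold rise without overlap (adjusted p = 1.17e-08). C1qb rose 5.65-fold (log2 fold change 2.50, SE 0.29, adjusted p = 2.14e-07). Of 14 complement genes tested, 10 rose and none fell, with a median log2 fold change of 1.26. The other rises included C3ar1, the receptor for C3a, and the integrin chains Itgam and Itgax, which pair in complement receptors. C3ar1 rose by 1.71 on the log2 scale (SE 0.22, adjusted p = 1.2e-06) and Itgax by 1.93 (SE 0.26, adjusted p = 1.7e-06).

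Receptors that mark tissue macrophages moved the same way, 9 of 16 tested rising and none falling (median 1.196). Cd72, a C-type lectin best known from B cells, had 7.81, 10.2, 11.7 and 9.81 CPM in Kaede-green 24h and 66.2, 60.8, 42.3 and 55.4 CPM in Kaede-red 72h. Its groups were apart by more than either spread, a 5.59-fold rise (adjusted p = 5.5e-09). Adgre1, which encodes F4/80, had 11.7, 15.98, 15.8 and 11.5 CPM against 57.6, 54.6, 52.0 and 48.1 CPM, a 3.82-fold rise (adjusted p = 1.31e-07). Csf1r, the receptor for the growth factor that keeps macrophages alive, had 29.6, 59.4, 27.0 and 41.7 CPM against 108, 104, 107 and 106 CPM. The long-dwell samples were nearly equal for Csf1r while the short-dwell samples spread widely, and the rise was 2.71-fold (adjusted p = 7.58e-05). Siglec1, a sialic acid receptor, rose by 1.84 on the log2 scale, Sirpa, which reads the CD47 signal on other cells, by 1.72, and Mrc1, the mannose receptor, by 1.08 (adjusted p = 0.00196). The Fc receptor list held Fcgr1, Fcgr2b, Fcgr3, Fcgr4, Fcer1g and Fcgrt. Of these 6, Fcgr2b, the inhibitory receptor, rose by 1.29 (SE 0.21, adjusted p = 3.21e-05), and the other 5 did not pass. That is 16.7% called, against 21.2% over all genes tested.

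Genes for the uptake of dying cells rose in 10 of 16 cases and fell in none (median 0.82). Axl, a receptor tyrosine kinase that takes part in the uptake of dying cells, rose by 1.27 (SE 0.19, adjusted p = 6.89e-06). Lrp1, a receptor for calreticulin and other ligands, rose by 1.16 (adjusted p = 4.58e-05), and Abca1, which exports cholesterol, by 1.47 (adjusted p = 5.58e-05). The count of 10 fell to 6 without replicate 3 of Kaede-green 24h. Among genes tied to lipid-laden macrophages 7 of 17 rose and 2 fell. Pltp, a phospholipid carrier, had 5.58, 3.69, 2.55 and 2.86 CPM against 22.98, 25.4, 30.9 and 36.7 CPM, an 8.31-fold rise (adjusted p = 1.14e-07). Apoe rose 3.58-fold, from 50.5 ± 25.4 to 181 ± 18.9 CPM (mean ± SD, n = 4 each), and Abcg1, another lipid exporter, by 1.35 on the log2 scale. Nr1h3, which encodes the sterol receptor LXR alpha, rose by 1.49 (SE 0.33, adjusted p = 0.00153). Tyrobp, the adaptor of several myeloid receptors, was on the falling side with 168, 159, 133 and 83.4 CPM against 42.9, 55.3, 52.3 and 35.5 CPM (log2 fold change -1.54, adjusted p = 2.59e-06).

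Lysosomal genes rose in 16 of 31 cases and fell in none (median 0.68), with 1 rise under the Rn45s covariate. Lgmn, which encodes the protease legumain, had 93.7, 92.6, 60.6 and 81.8 CPM in Kaede-green 24h and 316, 295, 236 and 281 CPM in Kaede-red 72h. The samples did not overlap, and the rise was 3.45-fold (log2 fold change 1.78, SE 0.21, adjusted p = 2.77e-07). Ctsd, the protease cathepsin D, rose 2.81-fold (adjusted p = 8.97e-06), Grn, progranulin, 2.79-fold (adjusted p = 3.79e-06) and Ctsb, cathepsin B, from 160 to 428 CPM between the group means (adjusted p = 2.53e-05). Further large rises outside the lists were Sdc3, a heparan sulfate proteoglycan (log2 fold change 1.86), Cd93, a membrane receptor of myeloid and endothelial cells (1.96), and Slc29a3, a lysosomal nucleoside transporter (2.01). Cd300lh, Gm11710 and Gm11711 rose by 2.52 to 2.69. Gm11710 and Gm11711 had the same counts in every sample, so the reads of these entries cannot be told apart.

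In MHC class II presentation 6 of 13 genes rose and none fell (median 0.87). Cd74, the invariant chain, had 139, 244, 109 and 80.2 CPM against 465, 391.7, 416 and 590 CPM, a 3.26-fold rise (adjusted p = 0.000163). Mir5107 lies inside Cd74 and rose by 2.30, and reads of the host count for it. H2-Aa and H2-Eb1 encode chains of the class II molecules. H2-Aa had 95.3, 115, 43.6 and 29.4 CPM against 141, 147, 136 and 203 CPM (log2 fold change 1.16, SE 0.31, adjusted p = 0.00615), and H2-Eb1 had 38.5, 49.2, 28.03 and 16.8 CPM against 105, 82.1, 79.2 and 116 CPM (1.54, SE 0.26, adjusted p = 6.27e-05). For both genes no sample overlapped the other group. With the Rn45s share as a covariate no class II gene was called, and the value of H2-Aa turned to -0.11. Ifi30, a lysosomal reductase that prepares antigens, rose by 1.14 (adjusted p = 0.00062). MHC class I was less uniform, with 5 of 20 genes higher and 1 lower, and H2-K1 rose from 160, 179, 133 and 159 CPM to 414, 365, 301 and 329 CPM (log2 fold change 1.16, adjusted p = 5.18e-05). The 5 fell to 2 without Kaede-green 24h replicate 3 or 4 or Kaede-red 72h replicate 1, and without replicate 3 or 4 of Kaede-green 24h 4 or 3 genes were lower.

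Of 9 class II promoters searched, those of H2-Aa and H2-Eb1 hold the Y box, the letters CTGATTGG that the factor NF-Y binds, and the other 7 do not. RefSeq sequences (GRCm38.p6) were searched over the 250 bases before each gene's start, on both strands, for the 7300 genes tested that have an entry. The stretches next to the start are shown 5′ to 3′ in gene orientation with the Y box in capitals, for H2-Aa at chr17:34287824-34287933 (minus strand) and for H2-Eb1 at chr17:34305757-34305866 (plus strand).
H2-Aa: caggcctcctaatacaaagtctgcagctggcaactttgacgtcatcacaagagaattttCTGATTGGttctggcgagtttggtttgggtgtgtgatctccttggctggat
H2-Eb1: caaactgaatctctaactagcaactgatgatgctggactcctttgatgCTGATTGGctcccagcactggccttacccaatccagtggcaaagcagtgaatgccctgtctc
The box lies 51 to 44 bases before the start of H2-Aa and 62 to 55 before that of H2-Eb1. It was present in 4.07% of the 27025 promoters of the table, in 5.95% of those of genes tested and in 6.04% of the 811 that rose, so its share among the rises was near the background.

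Macrophage transcription factors rose in 10 of 24 cases, and 1 fell. Zeb2 rose by 1.13 (SE 0.20, adjusted p = 6.82e-05) and Maf by 1.25 (adjusted p = 8.74e-05), factors known from macrophage identity. Runx3 rose by 1.45 (adjusted p = 0.000673). Pparg, a nuclear receptor of lipid handling, was low in all samples, with 1.67, 2.05, 0.51 and 0.409 CPM against 5.28, 5.19, 1.97 and 5.31 CPM, with an overlap at replicate 3 of Kaede-red 72h (log2 fold change 2.10, adjusted p = 0.0022). Tfec, a relative of MITF, fell by 1.92 on the log2 scale (adjusted p = 0.000423).

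Monocyte genes did not move as a block. Of 22 tested 9 fell and 3 rose, with a median of -0.34. Plac8 (chr5:100553725-100572245), a small cysteine-rich protein, had 985, 941, 843 and 621 CPM in Kaede-green 24h and 121, 189, 183 and 89.6 CPM in Kaede-red 72h. Every short-dwell sample was several times above every long-dwell sample, a 5.82-fold fall (log2 fold change -2.54, SE 0.25, adjusted p = 4.01e-08). S100a4, a calcium-binding protein of motile cells, had 231, 207, 247 and 169 CPM against 24.8, 41.2, 54.0 and 18.6 CPM (log2 fold change -2.64, adjusted p = 1.17e-08). S100a6 and Clec4e, a receptor for mycobacterial glycolipid, each changed by -1.61, and Nr4a1, an orphan nuclear receptor induced early in activation, by -1.62 (adjusted p = 5.19e-07). The rises were Itgam, from 76.5 ± 5.91 to 149 ± 11.6 CPM (mean ± SD, n = 4 each, adjusted p = 0.000417), the G-CSF receptor Csf3r (log2 fold change 1.22, adjusted p = 0.000548) and Spn, which encodes CD43 (1.11, adjusted p = 0.00749), whose adjusted p was 0.0666 with replicate 3 of Kaede-green 24h left out.

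Ly6c2, the gene of the monocyte antigen Ly6C, showed no called difference. It had 228, 292, 164 and 135 CPM in Kaede-green 24h and 169, 243, 196 and 175 CPM in Kaede-red 72h, so the groups overlapped fully (log2 fold change -0.06, SE 0.26, adjusted p = 0.888). Cebpb, a factor of monocytes and of inflammatory genes, had 65.8, 95.9, 74.9 and 70.7 CPM against 59.9, 51.8, 56.0 and 49.5 CPM. These did not overlap, but the test missed the threshold (log2 fold change -0.50, SE 0.19, adjusted p = 0.0614), and it was called lower without Kaede-green 24h replicate 1 (adjusted p = 0.0482) or 4 (0.046). Cx3cr1, the fractalkine receptor, gave 2.04 to 6.15 CPM against 6.96 to 7.16 CPM (log2 fold change 0.99, SE 0.41, adjusted p = 0.0893), and was called higher without Kaede-green 24h replicate 2 (adjusted p = 0.0408).

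Wfdc17, Slfn4 and Ifi27l2a were further falls of well expressed genes. Wfdc17, a small secreted protein of myeloid cells, had 77.5, 72.1, 77.7 and 83.4 CPM against 6.22, 11.7, 16.8 and 4.97 CPM. The short-dwell samples agreed closely, and the fall was 8.14-fold (log2 fold change -3.03, SE 0.26, adjusted p = 3.05e-09). Slfn4, a Schlafen gene of myeloid cells, had 306, 280, 305 and 284 CPM against 57.7, 85.5, 83.9 and 46.1 CPM, a 4.31-fold fall (adjusted p = 4.95e-08). Ifi27l2a, an interferon-induced gene, changed by -2.08 (adjusted p = 1.93e-07) and Sec61g, a subunit of the protein channel of the endoplasmic reticulum, by -2.09.

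Inflammatory cytokines and their makers fell in 8 of 18 cases and rose in none (median -0.92). Il6 had 7.25, 11.1, 15.5 and 7.36 CPM in Kaede-green 24h and 0.509, 1.84, 3.02 and 0.548 CPM in Kaede-red 72h. All long-dwell samples were below all short-dwell samples, an 8.28-fold fall (log2 fold change -3.05, SE 0.45, adjusted p = 8.07e-06). Il1b had 260, 240, 305 and 225 CPM against 98.2, 120, 111 and 86.4 CPM, a 2.48-fold fall (adjusted p = 5.26e-06). Ptgs2, the inducible cyclooxygenase, had 72.5, 53.3, 62.9 and 48.3 CPM against 19.5, 17.7, 16.3 and 13.2 CPM, a 3.55-fold fall (adjusted p = 1.09e-07). Il15, a cytokine for NK cells and memory T cells, changed by -2.14 (adjusted p = 1.83e-07), and Osm, oncostatin M, by -1.55 (adjusted p = 4.35e-06).

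Regulatory cytokines, their receptors and checkpoint ligands gave 5 rises and no fall among 17 genes. Tgfbr2, a receptor chain for TGF beta, had 6.13, 4.92, 8.15 and 0 CPM against 19.2, 19.7, 19.5 and 19.6 CPM (log2 fold change 1.97, adjusted p = 0.000223), and Tgfbr1, its partner, rose by 1.12 (adjusted p = 0.000846). The ligand Tgfb1 had 20.6, 45.9, 28.03 and 20.9 CPM against 55.6, 53.9, 44.3 and 44.0 CPM. It rose by 0.77 (SE 0.24, adjusted p = 0.0217) with an overlap at replicate 2 of Kaede-green 24h. The call was lost without replicate 1, 3 or 4 of Kaede-green 24h or replicate 1 or 2 of Kaede-red 72h (adjusted p = 0.0979, 0.0717, 0.094, 0.0671 and 0.0562), and the list kept 2 or 3 of its 5 calls without 4 of the 8 samples, each left out in turn. Il10 stayed near the limit of detection, with 0.51 to 2.23 CPM against 0.653 to 1.53 CPM (log2 fold change -0.35, SE 0.70, adjusted p = 0.761). Of the 12 genes that the study displays for this experiment, 6 rose (Adgre1, Cd74, H2-Aa, Mrc1, Pparg and Tgfb1), 2 fell (Il1b and Il6) and 4 did not pass, and as the study chose them on these samples they are not independent evidence of a direction.

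Chemokines divided, with 5 higher and 6 lower of 18 tested. Cxcl16, a membrane-bound ligand of CXCR6, had 19.5, 36.1, 14.5 and 6.13 CPM against 79.5, 78.9, 68.8 and 74.9 CPM, a rise of 2.00 (SE 0.28, adjusted p = 3.6e-06). Cxcl9, an interferon gamma target that draws CXCR3+ T cells, rose by 1.15 (adjusted p = 0.00189), and Pf4 rose by 2.04 (adjusted p = 0.00127). Ccl22, a ligand of CCR4, had no count in Kaede-green 24h and 137 counts over Kaede-red 72h, at least 4.06-fold higher against a floor of 3 counts over the short-dwell group. Cxcl2, which draws neutrophils, had 27.9, 18.4, 27.0 and 20.4 CPM against 5.13, 5.67, 9.83 and 3.10 CPM, a 4.17-fold fall (adjusted p = 1.28e-05). Ccl9 had 375, 363, 406 and 180 CPM against 65.3, 100.7, 132 and 62.7 CPM (log2 fold change -1.88, adjusted p = 3.15e-06), and Ccl2, the chemokine of CCR2+ monocytes, 131, 124, 144 and 81.8 CPM against 69.6, 65.6, 81.2 and 40.3 CPM (-0.91, adjusted p = 0.00261). Ccl6 changed by -1.16. The 5 rises fell to 3 without Kaede-red 72h replicate 1 or 4. Among receptors Ccr1 changed by -0.80 (adjusted p = 0.0016), and Ccr7, which guides dendritic cells to lymph nodes, went from no count to 220 counts (at least 6.52-fold higher against the same floor).

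The promoters of Il6 and Cxcl2 are shown as examples of genes that fell and hold a match to the NF-kB letters GGGANTTTC. The letters were in 2 of 13 cytokine and 4 of 12 chemokine promoters, among them that of Cxcl9, which rose. Il6 is given at chr5:30012964-30013113 and Cxcl2 at chr5:90903779-90903868 (GRCm38.p6, plus strand, 5′ to 3′, ending 1 and 31 bases before the start). Capitals mark the NF-kB match and, in Il6, also matches to C/EBP (TTGCNNAA) and the Y box, from left to right C/EBP, Y box and NF-kB.
Il6: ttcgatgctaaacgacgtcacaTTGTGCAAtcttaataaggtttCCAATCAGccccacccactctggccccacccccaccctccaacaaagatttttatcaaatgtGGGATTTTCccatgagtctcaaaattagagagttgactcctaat
Cxcl2: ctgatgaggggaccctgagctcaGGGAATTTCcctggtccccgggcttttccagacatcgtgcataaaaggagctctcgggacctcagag
The NF-kB letters were found in 0.836% of the promoters of genes tested, in 1.04% of the 674 of genes that fell and in 0.493% of the 811 of genes that rose. C/EBP letters were in 7.397%, 9.20% and 7.28%, AP-1 letters (TGANTCA) in 4.27%, 4.75% and 4.81%, and the letters of the interferon response element (GAAANNGAA) in 6.74%, 8.75% and 7.52%, all near the background.

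Genes of the NF-kB pathway itself did not fall together, since 5 of 22 rose and 2 fell. Icam1 rose by 1.03 (adjusted p = 0.00325) and Tnip1, an inhibitor of NF-kB signalling, by 1.27 (adjusted p = 0.000342). The 5 rises were 3 without Kaede-green 24h replicate 3 or 4 or Kaede-red 72h replicate 4. Immediate early and stress genes, which respond within minutes to signals or handling, fell in 10 of 22 cases and 1 rose. Btg2 had 93.7, 108, 111 and 92.0 CPM against 43.6, 46.9, 53.8 and 39.0 CPM (log2 fold change -1.15, adjusted p = 1.84e-05). Dusp1, a phosphatase that ends MAP kinase signals, had 278, 265, 190 and 182 CPM against 121, 114, 142 and 84.6 CPM (-0.99, adjusted p = 0.000616), and Ier3 changed by -1.22. Interferon-stimulated genes were mixed, 3 of 30 higher and 3 lower (5 lower without Kaede-green 24h replicate 4), each share near the background. Isg15 (-1.28, adjusted p = 8.07e-06) and Mx2 (-1.68, adjusted p = 1.97e-06) fell and Ddx58, the sensor RIG-I, rose by 0.82 (adjusted p = 0.00181).

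Antioxidant genes fell in 9 of 23 cases and 2 rose (1 without any of 6 samples, each left out in turn). Gpx4, which repairs lipid peroxides, had 43.5, 46.7, 30.8 and 24.9 CPM against 7.63, 15.8, 12.3 and 9.29 CPM (log2 fold change -1.69, adjusted p = 4.83e-06), and Prdx5 and Prdx2, which break down peroxide, changed by -1.03 and -1.22. Cybb, the catalytic subunit of the phagocyte NADPH oxidase, rose from 55.8, 66.0, 66.8 and 62.2 CPM to 138, 130, 110 and 136 CPM (log2 fold change 1.03, SE 0.20, adjusted p = 0.000231). Glycolysis and hypoxia genes were near the background, 3 of 26 in each direction. Bnip3, a mitophagy receptor induced by hypoxia, had 44.6, 67.6, 35.4 and 47.0 CPM against 15.9, 20.7, 23.1 and 18.6 CPM (-1.32, adjusted p = 2.29e-05), and Vegfa changed by -0.95 (adjusted p = 0.00115). None of the list was called higher without Kaede-green 24h replicate 3 or 4 or Kaede-red 72h replicate 1, 5 were higher without Kaede-green 24h replicate 2, and 5 were lower without Kaede-green 24h replicate 4. Matrix and growth factor genes rose in 8 of 20 cases and fell in 2. Mmp14, a membrane-bound protease, rose by 1.36 (adjusted p = 8.45e-05) and Mmp12, the macrophage elastase, by 2.26 (adjusted p = 5.04e-05). Of 13 iron and haem genes 3 rose and none fell, with Slc11a1, the metal transporter of phagosomes, up by 0.93 (adjusted p = 0.00348). Cell cycle genes gave 5 falls and 1 rise of 27, and from 0 to 3 of the 5 falls were called without Kaede-green 24h replicate 3 or 4 or any 1 of the 4 Kaede-red 72h samples. Plk1, the rise, had 1 count over the short-dwell group against 140 counts, a ratio of 12.4 with a 95% counting interval of 2.2 to 495, and it missed the threshold when any of 6 samples was left out (adjusted p = 0.0546 to 0.149).

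**Figure D3:**
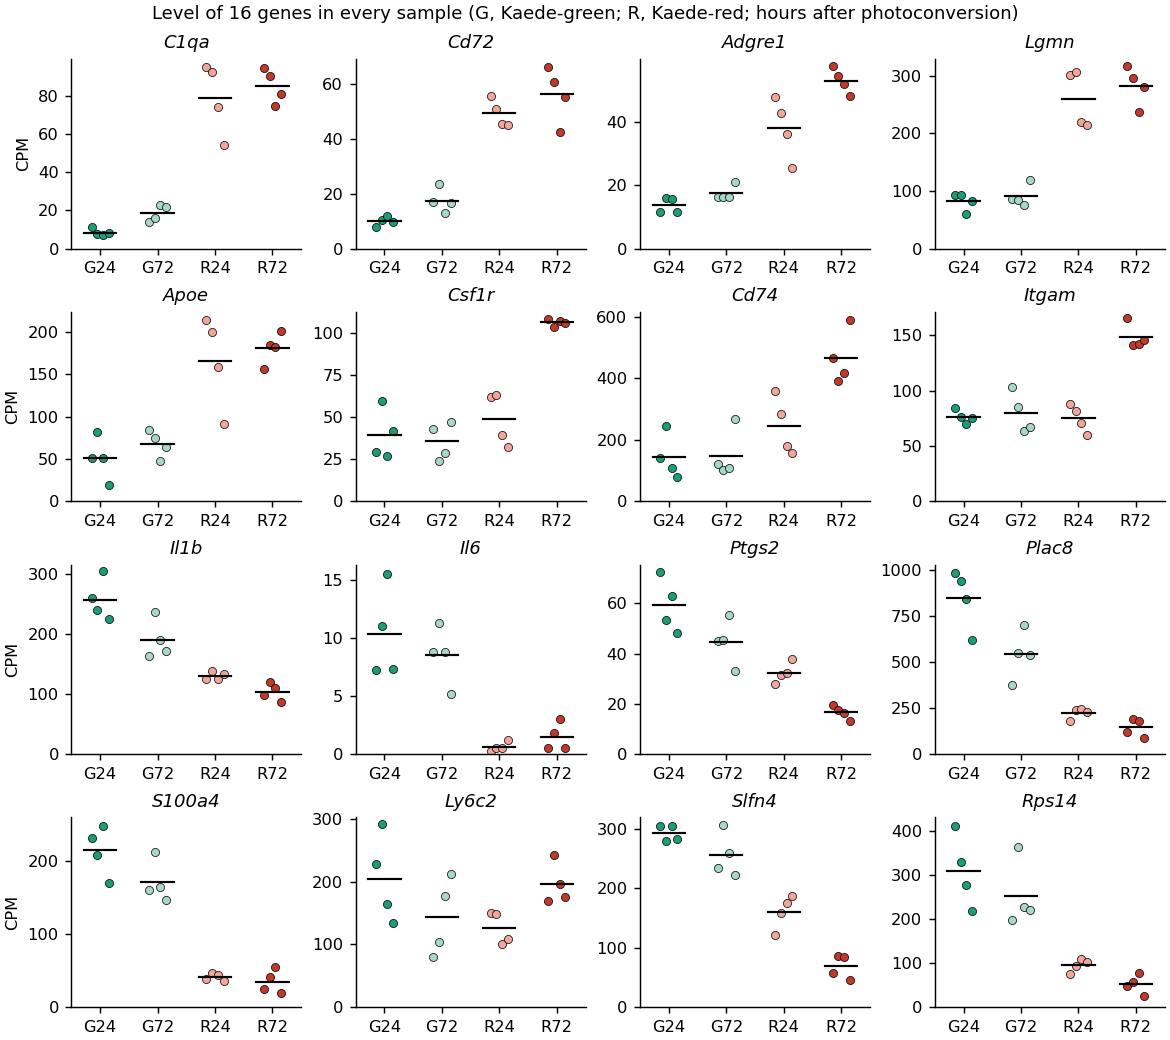
CPM of 16 genes in every sample, 4 points per group with the group mean as a line, and each axis from 0. The Kaede-green 24h and Kaede-red 72h points do not overlap in any panel but that of Ly6c2. Kaede-red 24h lies near Kaede-red 72h for C1qa, Cd72 and Lgmn and near Kaede-green 24h for Itgam.

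Among the lists, the broadest fall was that of cytoplasmic ribosomal protein genes. Of 83 cytoplasmic ribosomal protein genes tested, 72 fell and none rose (median -1.41). Rps14 had 412, 329, 277 and 219 CPM against 47.0, 57.6, 78.2 and 25.4 CPM, a 5.98-fold fall without overlap (adjusted p = 6.37e-08). Rps23 changed by -2.26 (adjusted p = 4.95e-08), Rps25 by -2.13 and Rpl22 by -2.04. Many ribosomal protein genes have copies that share reads, as Rps27rt does with its parent, and single members are uncertain for that reason. Ribosomal proteins made up 4.57% ± 0.404 of the counts outside Rn45s in Kaede-green 24h and 2.86% ± 0.404 in Kaede-red 72h (mean ± SD, n = 4 each, exact permutation p = 0.0286), and small nucleolar RNAs 0.414% ± 0.0285 and 0.189% ± 0.0631 (exact permutation p = 0.0286). The shares of the respiratory chain (0.531% ± 0.0251 and 0.508% ± 0.0492, exact permutation p = 0.429) and of histones (0.884% ± 0.179 and 0.778% ± 0.0689, exact permutation p = 0.371) did not pass. These shares are of all counts outside Rn45s, with Lars2, Mir6236 and Gm20594 in the total. The library size behind CPM also holds these genes and Rn45s, but TMM rescales it to the bulk of genes. Nuclear genes of the respiratory chain and ATP synthase fell in 42 of 76 cases and rose in 2 (median -0.82), among them Uqcrh, a subunit of complex III, with 81.4, 70.1, 61.4 and 56.4 CPM against 12.6, 15.8, 19.4 and 9.48 CPM (log2 fold change -2.25, adjusted p = 5.54e-08). Mitochondrial ribosomal proteins were closer to the background, 11 of 77 lower and none higher, and 7 lower without Kaede-red 72h replicate 1 or 4.

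Histone genes fell in 40 of 71 cases and none rose (median -1.02). Hist1h4i, an H4 gene, had 20.6, 14.7, 5.61 and 7.36 CPM against 1.06, 1.16, 1.21 and 0.906 CPM (log2 fold change -3.44, adjusted p = 9.72e-08). Small nucleolar RNAs, which guide the modification of ribosomal RNA, fell in 54 of 67 cases and none rose (median -2.08). Snord82, which lies inside a protein-coding host gene, had 54.1, 28.3, 62.4 and 69.1 CPM against 6.46, 4.72, 11.2 and 1.54 CPM, and the groups were well apart (log2 fold change -3.28, adjusted p = 7.92e-08). Long nuclear RNAs fell in 5 of 8 cases. Gas5, a host of small nucleolar RNAs, had 191, 203, 210 and 225 CPM against 27.6, 32.6, 68.7 and 12.7 CPM (log2 fold change -2.58, adjusted p = 1.47e-06). Neat1, the scaffold of paraspeckles, had 95.9, 52.8, 127 and 135 CPM against 21.4, 20.0, 24.0 and 24.0 CPM (-2.21, adjusted p = 1.09e-07). Malat1 had 1535, 1742, 3608 and 3975 CPM against 977, 1163, 1344.5 and 1431 CPM (-1.14, adjusted p = 0.00788).

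Short genes and low ribosomal RNA share went with these falls. The median exon length was 2588 bases for genes that fell and 5236 for genes that rose, against 4601 for all tested. Among the 1858 shortest genes (59 to 2524 bases) 25.5% fell and 6.30% rose. With offsets for length and GC content, an alternative chosen after seeing the data, the counts of falls were 67 for ribosomal proteins (72 without offsets), 31 for the respiratory chain (42), 24 for histones (40), 8 for small nucleolar RNAs (54), 6 for mitochondrial ribosomal proteins (11), 3 for long nuclear RNAs (5), 10 for immediate early genes (10) and 7 for cytokines (8). The chemokines were then 8 higher and 3 lower. With the Rn45s share as a covariate the ribosomal, respiratory, histone and small nucleolar counts were 20, 2, 1 and 4. Beyond these fits, the part of length and of ribosomal RNA in the falls was not tested.

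**Figure D4:**
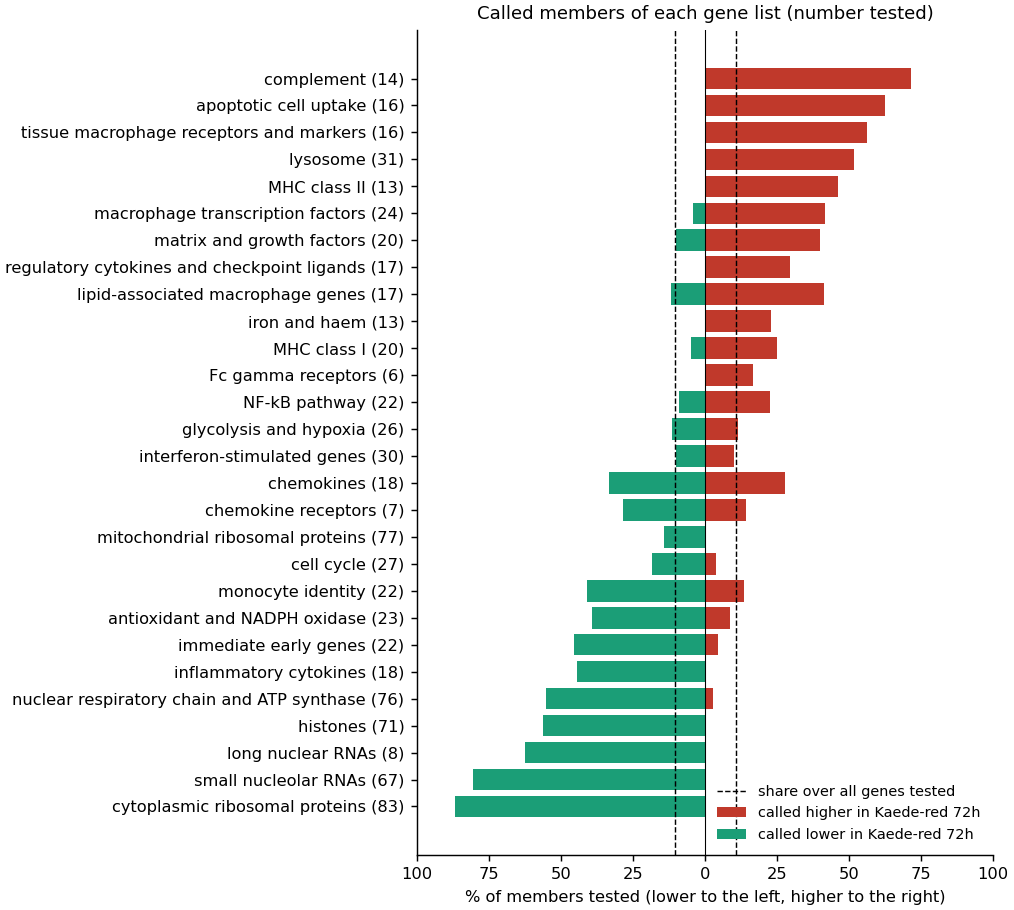
Percent of the tested members of each of 28 gene lists called higher (red, to the right) or lower (green, to the left) in Kaede-red 72h, with the number tested in brackets and dashed lines at the share over all genes, 10.8% and 10.4%. Complement, dead-cell uptake, macrophage receptors and lysosome are entirely on the higher side, and ribosomal proteins, small nucleolar RNAs, long nuclear RNAs and histones entirely on the lower side.

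Markers of other cells were measured too. Fibroblast markers fell in 5 of 8 cases and their 12 genes summed to 81.1 to 111 CPM in Kaede-green 24h and 32.1 to 38.5 CPM in Kaede-red 72h. The falls were the 5 collagen genes, led by Col3a1 with 22.3, 22.1, 23.4 and 24.1 CPM against 5.17, 8.25, 10.3 and 4.51 CPM (log2 fold change -1.75, adjusted p = 7.87e-06), while Lum had no count in Kaede-green 24h. Col6a1 had 17.6 to 40.8 CPM in Kaede-green 24h and 6.65 to 10.06 CPM in Kaede-red 72h. Endothelial markers rose in 2 of 3 cases (Kdr by 1.27 and Pecam1 by 1.36, both also made by some myeloid cells), with a summed level of 11.7 to 19.2 against 23.1 to 37.2 CPM and no count of Tek in Kaede-green 24h. Dendritic cell markers summed to 13.5 to 22.3 against 35.1 to 52.4 CPM, and Itgax and Ccr7 rose among 6 tested. Itgax alone, also counted in the complement list, had 6.54 to 9.01 CPM in Kaede-green 24h and 19.96 to 36.3 CPM in Kaede-red 72h. Batf3, Dpp4, Fscn1 and Cd209a were tested and not called. Neutrophil markers summed to 9.42 to 12.3 against 18.9 to 23.9 CPM with Csf3r as the rise of 2 tested, while Camp and Ngp were at 0 in all 8 samples and S100a8 was at most 1.23 CPM. T and NK cell markers (3.69 to 11.5 against 4.99 to 10.1 CPM), B cell markers (1.02 to 2.45 against 0.832 to 1.66 CPM), epithelial markers (0 to 3.68 against 0.548 to 1.21 CPM), erythroid markers (3.90 to 8.997 against 0.0632 to 11.3 CPM) and mast cell and basophil markers (4.84 to 8.59 against 5.69 to 7.86 CPM) had overlapping sums. In the T and NK list Gzmb, a granule protease, was the 1 rise of 2 tested, and its call was lost without Kaede-green 24h replicate 3 or 4 or Kaede-red 72h replicate 1 or 4 (adjusted p = 0.0827, 0.0967, 0.0678 and 0.0831). The part of such cells in the results above was not tested.

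The intermediate groups show where each gene lay in samples of the other labels. Groups taken at 24 and at 72 hours came from different mice, so positions give no order of events. A position of 0 is the mean log2 CPM of Kaede-green 24h and 1 that of Kaede-red 72h, and no test was made on it. Over the genes that rose the median position was 0.28 in Kaede-green 72h and 0.60 in Kaede-red 24h, and over those that fell it was 0.19 and 0.51. Of 1044 genes that rose, 351 had a Kaede-red 24h position over 0.75 and 195 one under 0.25. Of 1001 that fell, 200 and 197 did so. Single Kaede-red 24h samples had median positions of 0.49 to 0.73 over the rises and 0.39 to 0.66 over the falls, and single Kaede-green 72h samples 0.22 to 0.43 and 0.05 to 0.26, so every Kaede-red 24h sample stood closer to long dwell than every Kaede-green 72h sample. The Rn45s share of Kaede-red 24h replicates 1 to 4 was 66.2%, 68.2%, 83.1% and 84.9%. Their positions were 0.73, 0.71, 0.49 and 0.50 over the rises and 0.66, 0.56, 0.39 and 0.46 over the falls. The part of the Rn45s share in the positions was not tested.

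C1q and several lysosomal genes were close to their final level in Kaede-red 24h. C1qa had 54.1 to 94.7 CPM there (position 0.96), and C1qb, C1qc, Cd72, Lgmn, Apoe and Ctsd had positions of 0.94, 0.89, 0.93, 0.93, 0.90 and 0.99. Cxcl16 was at 1.02. Csf1r, Itgam and Cybb were at or near the short-dwell level, with Csf1r at 32.0 to 63.2 CPM (position 0.22), Itgam at 59.6 to 88.2 CPM (-0.04) and Cybb at 44.5 to 72.9 CPM (-0.12). Zeb2 (0.31) and Cd74 (0.45) lay between. The list medians over called members were 0.76 for complement, 0.74 for macrophage receptors, 0.63 for MHC class II and 0.61 for lysosome.

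Among the falls the cytokines in Kaede-red 24h lay nearer to the Kaede-red 72h level. Il6 had 0.264 to 1.23 CPM in Kaede-red 24h (position 1.30), on 3, 4, 3 and 19 counts, so its place past 1 rests on few counts. Osm, Nr4a1, Il15 and Il1b had positions of 1.09, 1.12, 0.80 and 0.74, and the median was 0.95 over the 8 cytokine falls. S100a4 (0.87) and Plac8 (0.74) also lay nearer to that level. Slfn4 (0.41), Ptgs2 (0.47) and Ccl9 (0.40) were midway, and Cxcl2 (0.18), Ccl2 (0.15) and Bnip3 (0.02) were close to the short-dwell level in Kaede-red 24h. For Cxcl2 the Kaede-green 72h position was 0.46, so the samples taken at 72 hours were the lower ones in both colours. Ribosomal proteins had a median position of 0.61, histones 0.35 and small nucleolar RNAs 0.58.

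**Figure D5:**
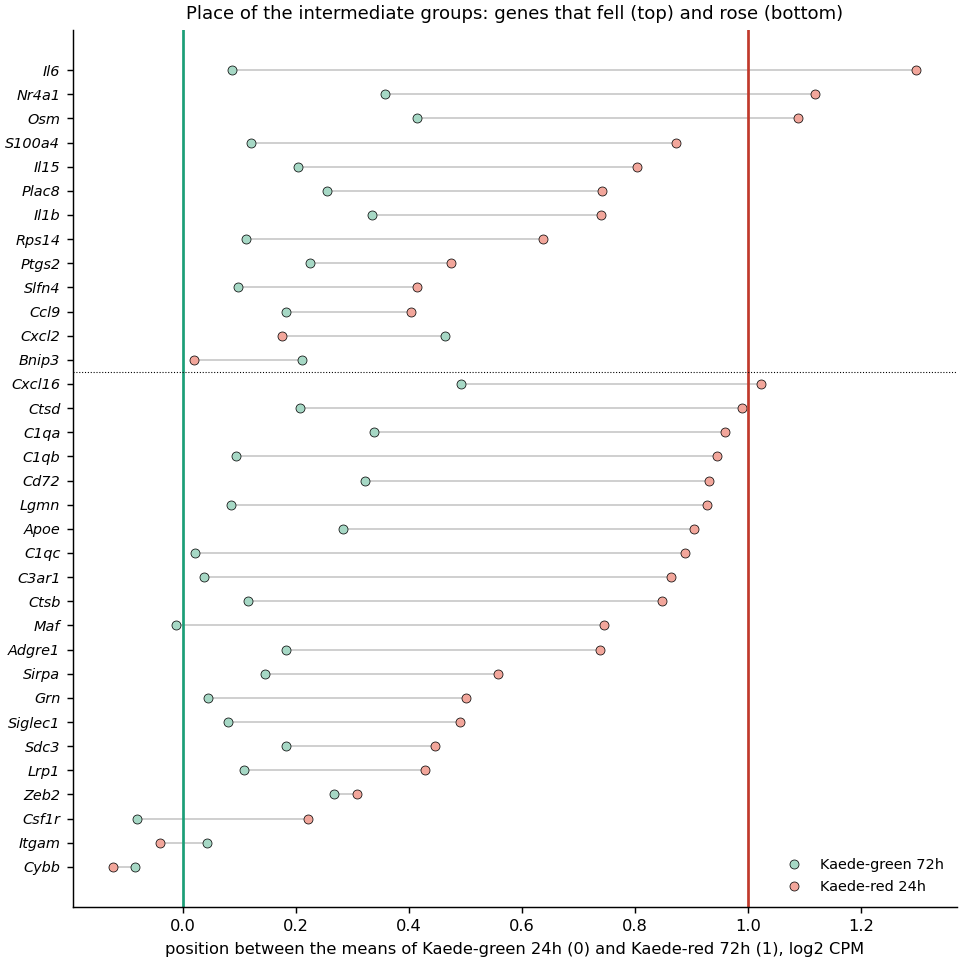
Position of Kaede-green 72h (pale green) and Kaede-red 24h (pale red) between the group means of Kaede-green 24h (0, green line) and Kaede-red 72h (1, red line) on the log2 CPM scale, for 13 genes that fell (top) and 21 that rose (bottom). Il6 (3 to 19 counts per sample), Nr4a1 and Osm lie past 1 in Kaede-red 24h, C1qa and Ctsd near 1, and Itgam, Cybb and Bnip3 near 0.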

How the data were processed

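RNA of the sorted cells was sequenced as stranded total RNA, and the authors trimmed reads with Trim Galore, checked them with FastQC, used HISAT2 for the alignment to mm10 and featureCounts for counts per gene. The deposited values are raw whole-number counts for 24421 genes and 16 samples. Versions are not given in the sources used here. Some features share reads, since genes that overlap can carry counts of each other. Of the genes named, 27 overlap another gene, in sense or antisense, and the strand setting of the counting is not given in the sources used here, so these (for example Cd72, Ctsb, Cxcl16, Pltp, Csf1r, Itgam and S100a4) are uncertain to that extent.

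Counts were tested with edgeR 4.0.16 (R 4.3.3) by its quasi-likelihood test, with filterByExpr at default settings, TMM factors, all 16 samples and 1 mean per group, and Benjamini-Hochberg adjustment over the 9642 genes tested. The contrast was Kaede-red 72h minus Kaede-green 24h and the threshold 0.05. The study ran DESeq2, which is an alternative here (version 1.42.0). The replicates of a group are tumours from separate mice. Both colours were sorted from the tumours taken at each time, so samples of the same time may share mice. The main fit did not model this. Positions used log2 CPM with a prior count of 2. Gene coordinates are those of GRCm38. Over all counts, Rn45s included, no 2 replicates of either extreme agreed within sampling noise (chi-square per degree of freedom from 6.69 to 95.6). Most counts fell on Rn45s, so this measure says little about single genes. Intervals and floors cover counting error only.

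Named genes were the 12 that the study displays for this experiment, the 15 largest rises and falls with separate groups and a mean log2 CPM of 4 or more, outside the ribosomal protein, histone and small nucleolar RNA lists, up to 5 called members per list and direction by p, the most abundant markers and Rn45s, and some genes under this rule are not reported here. The members and the lists were chosen with earlier results of these data known. Alternatives were another test, scaling, filter, set of samples, dispersion and depth, the Rn45s share as a covariate, Rn45s left out, a replicate block and each sample left out. Offsets for length and GC content, and leaving out ribosomal, histone and small nucleolar features, were chosen after seeing the data. Rn45s, Lars2, Mir6236 and Gm20594 were left out with the ribosomal features.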

Additional observations from a re-analysis of the deposited data

Results flagged for a closer look

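In 7 of the 226 groups of 4 samples looked at (113 named genes in both extremes), 1 sample stood apart from the other 3 past Dixon's 95% critical value, and chance flags about 1 group in 20. In Kaede-green 24h, replicate 4 was lowest for Ccl6 (112 CPM, the others 229 to 253) and for Osm (20.9 CPM, the others 30.1 to 31.5), and replicate 2 was highest for Nr1h3 (7.78 CPM, the others 2.79 to 3.27). In Kaede-red 72h, replicate 4 was highest for H2-Aa (203 CPM, the others 136 to 147) and for Mir5107 (73.8 CPM, the others 34.2 to 36.5). Replicate 1 was highest for Ctsb (466 CPM, the others 412 to 420), and replicate 3 was lowest for Pparg (1.97 CPM, the others 5.19 to 5.31).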

How the results depend on the processing

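With the Rn45s share as a covariate 86 genes were called, 26 higher and 60 lower, and 30 of 113 named genes kept their side of the threshold and direction. Scaling by library size alone called 9179 genes, 9176 higher and 3 lower, with the median gene at 2.81. Requiring at least 10 counts in every sample left 3084 genes, of which 672 were higher. A fit on only the 8 samples compared called 1768 genes, 798 higher and 970 lower. In that fit the rises were 7 for dead-cell uptake (10 in the main fit), 3 for regulatory cytokines and checkpoint ligands (5) and 1 for glycolysis and hypoxia (3). With the covariate the log2 fold change was -0.063 for Cx3cr1, 1.40 for Gm20594, -0.11 for H2-Aa, 1.03 for Il10 and -0.032 for Tgfb1. With length and GC offsets it was 0.26 for Il10 and 0.037 for Ly6c2. For Ly6c2 it was 0.10 with no filter and ran from -0.25 to 0.14 when 1 sample was left out, above 0 for replicate 2 of the short-dwell and replicate 1 of the long-dwell group. The cause of these changes was not tested. DESeq2 called 2266 genes (982 higher, 1284 lower), and without 1 sample in turn 1517 to 2054 were called, 736 to 1023 higher and 781 to 1039 lower. Of 109 called named genes 104 kept the call without any 1 sample, the others being Gm20594, Gzmb, Plk1, Spn and Tgfb1. The difference in Rn45s share ran from -20.5 to -26.5 points and that in counts outside Rn45s from 2.17 to 2.95 (log2), both with an exact permutation p of 0.0571, the smallest that 4 against 3 samples allow. The shallow Kaede-green 24h libraries limit what could be seen in genes of low level.

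Kaede-green 24h and Kaede-red 72h samples of the same replicate number had correlations of -0.03, 0.06, -0.04 and 0.12 for numbers 1 to 4. These groups came from different mice, so the values cannot decide whether the numbers pair samples. Whether they pair the 2 colours taken at the same time was not tested. With a replicate block 1927 genes were called, 987 higher and 940 lower, and no call of a named gene changed.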
